A study of Mus musculus with 3 samples.

Results

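Cluster 2 is the group of mature absorptive colonocytes in a single-cell RNA sequencing study of the mouse anorectal junction, where columnar epithelium of the distal colon gives way to the squamous epithelium of the anal canal. Its members were chosen by the cluster number in the cell table the authors deposited, where all cells numbered 2 carry the name colonocytes. They were 3711 of 37080 cells. C57Bl/6 mice, bought at 6 weeks of age from the Jackson Laboratory, were untreated (day 0) or drank water with 3% dextran sulfate sodium (DSS), which is toxic to the gut epithelium, for 6 days. Mice were taken on day 7, described by the submitters as highly colitic, or on day 42, described as recovered. Each day is 1 library made from the pooled tissue of 5 mice. The tissue was digested with trypsin and dead cells were removed with Annexin V before 10x Chromium 3' capture. All animals were wild type, and DSS exposure and time are the differences that the labels give between the groups.

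Absorptive colonocytes are the main cell of the colon surface. They take up salt, water and the short-chain fatty acids made by bacteria, exchange chloride for bicarbonate across the apical membrane, and release peptides and oxidants that keep bacteria away from the epithelium. They arise from dividing cells in the crypt, move up to the surface over some days and are shed there, so a cluster of colonocytes can hold cells of different maturity. DSS damages this lining, and the surrounding tissue fills with inflammatory cells while it heals.

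Cluster 2 held 1936 cells on day 0, 703 on day 7 and 1072 on day 42, with 12740429, 6809438 and 5135985 unique molecular identifiers (UMIs, each 1 captured RNA molecule) in sum. The median cell had 4419.5 UMIs on day 0, 7194 on day 7 and 3712 on day 42. The day 0 cells stood apart in their RNA: the median share of UMIs from mitochondrial genes was 28.8% on day 0, 14.05% on day 7 and 14.5% on day 42, and 71.3% of day 0 cells were over 20%, against 33.3% and 32.0%. Gm42418, a transcript that overlaps ribosomal RNA, stood at 35452 CPM on day 0 against 14674 and 14758 on days 7 and 42, and the day 42 log2 ratio of -1.26 came beside -0.76 and -0.84 in clusters 7 and 15. Values after a filter on such cells are given for the shares of cluster 2, Slc26a3 and Aqp8, and ranges over all 14 alternative settings for gene lists whose median turned or moved widely. There were 139 barcodes present in more than 1 library, and 26 cells of cluster 2 carried one. Expression is given as UMIs summed over the cells of cluster 2 per 1000000 UMIs of the same cells (CPM). Each day being 1 library, days could not be compared by a test, and neither the spread between mice nor any difference between the library preparations can be told apart from the day. The 95% intervals (exact Poisson for CPM, exact Clopper-Pearson for shares) cover counting error only.

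The label was checked against the 6 marker genes of this cluster within the columnar cells, which are clusters 2, 7, 15 (secretory), 22 and 24 (enteroendocrine). These values describe the cluster and test nothing, since the clusters were made from expression in the same cells. Car1, a carbonic anhydrase of the colonocyte cytosol, stood at 1904 CPM in cluster 2 on day 0 and at 32.0 CPM in cluster 7, the other large cluster named colonocytes. Car4, the membrane-bound carbonic anhydrase, stood at 525 against 5.65 CPM. Slc26a3, the chloride and bicarbonate exchanger of the surface, stood at 628 against 8.54 CPM. Saa1, an acute phase protein, stood at 1112 against 12.4 CPM, and Lypd8, a secreted protein that holds off flagellated bacteria, at 9332 against 1659 CPM. Cyp2c55, a cytochrome P450 of the colon, stood at 621 against 54.2 CPM. All 6 markers were therefore higher in cluster 2 than in cluster 7, which fits the name.

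Other genes drew the same line. Within day 0, the 5 highest log2 ratios of cluster 2 over cluster 7 belonged to Saa1 (5.65), Car1 (5.51), Slc26a3 (5.10), Car4 (5.09) and Aqp8, the water channel of surface colonocytes (4.75). The 5 lowest belonged to Ttr, Ube2c, Hist1h1b, Stmn1 and Mki67, of which all but Ttr are genes of dividing cells. Mki67, a marker of the cell cycle, was at 8.01 CPM in cluster 2 and at 182 CPM in cluster 7. Against cluster 15 the lowest genes were Mptx1, Spink4, Reg4, Sval1 and Muc2, products of secretory cells, and the goblet mucin Muc2 stood at 23.1 against 2993 CPM. Against the hormone-secreting cluster 24 they were Pyy, Gcg, Insl5, Chga and Chgb. Cluster 22 held 279 of its 288 cells on day 7, and there Car4 stood at 6.46 CPM against 856 in cluster 2, while Saa1 stood at 303.5 against 6968 CPM. Car1 and Lypd8 set the pair less far apart, at 794 against 2060 and 8656 against 21795 CPM. The genes lowest in cluster 2 against it were Vim, Krt14, Retnlg, S100a9 and Krt5, which are mesenchymal, basal keratinocyte and neutrophil genes.

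**Figure D1:**
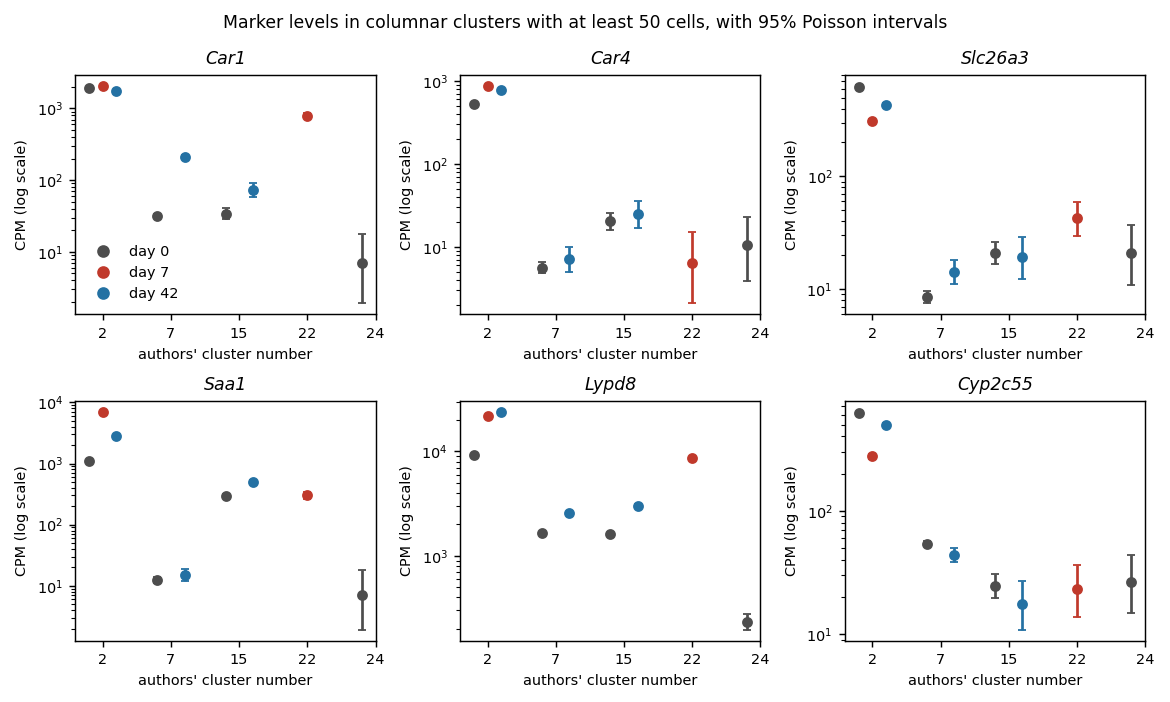
CPM on a log scale of the 6 marker genes (panels) in columnar clusters with at least 50 cells on a day (x axis, cluster numbers), coloured by day, with exact 95% Poisson intervals. Car4 and Slc26a3 sit between 311 and 856 CPM in cluster 2 and below 50 CPM in the other clusters shown.

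Cluster 2 was 17.5% of all captured cells on day 0 (95% interval 16.8 to 18.3), 4.89% on day 7 (4.54 to 5.26) and 9.19% on day 42 (8.67 to 9.73). Among columnar cells the order was different, with 45.0% of 4306 cells on day 0 (43.5 to 46.5), 66.2% of 1062 on day 7 (63.3 to 69.0) and 63.8% of 1680 on day 42 (61.5 to 66.1). Cluster 7, with its cell cycle genes, held 1809 cells on day 0, 33 on day 7 and 412 on day 42. Cluster 15 held 479, 35 and 179 cells on these days. On day 7 most columnar cells were therefore of cluster 2 or cluster 22. Keeping only cells with at least 1000 UMIs, at least 500 genes and at most 20% mitochondrial UMIs left 546, 461 and 691 cells of cluster 2, or 7.47%, 4.05% and 7.28% of all cells and 22.5%, 59.6% and 56.6% of columnar cells. Shares depend on how much anal and colonic tissue went into each pool and on which cells survived the digestion, and these were not measured.

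Between days a gene was taken as measured where the mean of both libraries was at least 10 CPM, and as higher or lower where the ratio was at least 2-fold after 10 CPM had been added to both levels. On day 7 against day 0, 210 of 7139 measured genes (2.94%) were higher and 73 (1.02%) lower, with a median log2 ratio over all measured genes of 0.05. On day 42 against day 0, 110 of 7099 (1.55%) were higher and 20 (0.282%) lower, with a median of 0.04. On day 42 against day 7, 65 of 7107 (0.915%) were higher and 82 (1.15%) lower. Higher genes made up 74.2% of those past the 2-fold line on day 7 and 84.62% on day 42, but 54.04% and 70.07% when totals left out mitochondrial and ribosomal protein genes. Both comparisons with day 0 share the day 0 library, so their likeness is no separate evidence. Over the programme lists described below, 56 entries were higher and 8 lower on day 7, and 32 were higher and 2 lower on day 42, where a gene on more than 1 list counts on each.

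**Figure D2:**
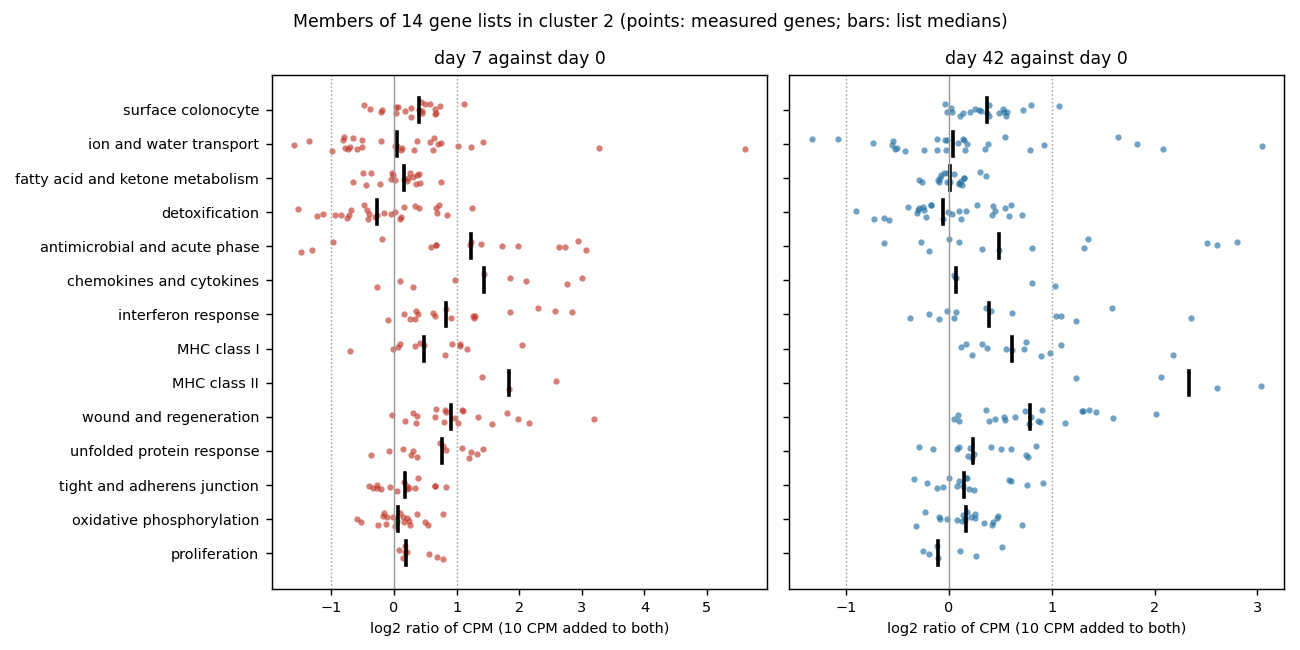
Log2 ratio of CPM in cluster 2 (x axis) for each measured member of 14 gene lists (y axis), day 7 against day 0 on the left and day 42 against day 0 on the right. Points are genes, black bars are list medians and dotted lines mark 2-fold, and the MHC class II list has the highest median in both panels (1.84 and 2.34).

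The absorptive markers themselves did not move as one. Saa1 stood at 1112 CPM on day 0 (1094 to 1131), 6968 on day 7 (6906 to 7031) and 2782 on day 42 (2736 to 2828), with log2 ratios to day 0 of 2.64 and 1.31. Lypd8 stood at 9332 CPM on day 0, 21795 on day 7 and 23885 on day 42, with log2 ratios of 1.22 and 1.35, and was the most abundant marker of the 6 on every day. Both are defence genes, and both were at least 2-fold higher on either later day. Car1 stood at 1904, 2060 and 1749 CPM, and Car4 at 525, 856 and 770 CPM, in the order day 0, day 7 and day 42, and neither passed 2-fold. Slc26a3 stood at 628, 311 and 428 CPM, with log2 ratios of -0.99 and -0.54, which became -0.57 and -0.12 after the cell filter. Cyp2c55 stood at 621, 276 and 498 CPM, so that it was lower on day 7 by the 2-fold rule (log2 ratio -1.14) and not on day 42 (-0.31). Across the 14 alternative settings its day 7 log2 ratio ranged from -1.34 to -0.84.

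Of the surface colonocyte list, which holds cytoskeletal and brush border genes, 21 were measured and only Krt20 passed 2-fold. Krt20, the keratin of shed surface cells, stood at 302 CPM on day 0, 669 on day 7 and 646 on day 42, with log2 ratios of 1.12 and 1.07. The lowest values of these over the settings were 0.94 and 0.90, so its place just past 2-fold depended on the processing. The list's median log2 ratio was 0.40 on day 7 and 0.37 on day 42. No member of the tight and adherens junction list (16 measured) or of the fatty acid and ketone metabolism list (19 measured), the fuel pathway of colonocytes, passed 2-fold on either day. Nor did any of the oxidative phosphorylation list (20 measured) or of the hindgut identity list (14 measured). Their medians lay between -0.15 and 0.18, and over the settings between -0.32 and 0.48, with either sign. In the proliferation list, 8 genes were measured on day 7 and 7 on day 42, and none passed 2-fold. After each cell was thinned to 1000 UMIs, Mki67 gave a UMI in 1% of cluster 2 cells on day 0, 1.74% on day 7 and 0.834% on day 42. T cells, which can divide themselves and so set no background level, gave 6.15%, 2.78% and 3.33%. Without thinning Mki67 was seen in 3.10%, 8.39% and 3.36% of cluster 2 cells. Lgr5, the stem cell receptor, gave a UMI in 0.158% of thinned cells on day 0 and in none of 688 and 959 thinned cells on days 7 and 42. Without thinning it was seen in 0.568% of cells on day 0 and 0.373% on day 42.

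Among 29 measured genes of ion and water transport, 5 were higher and 2 lower on day 7, with a median of 0.04 (-0.21 to 0.07 over the settings). Clca4b, a member of a family of secreted metalloproteases that modulate chloride currents, had the largest change of the list. It stood at 13.97 CPM on day 0 (11.99 to 16.18), 1153 on day 7 (1128 to 1179) and 188 on day 42 (176 to 200), with log2 ratios of 5.60 and 3.04. Its level was thus far above day 0 on both later days and highest in the colitic library. Its neighbour Clca4a stood at 136, 335 and 510 CPM, and was highest on day 42. The water channel Aqp4 stood at 2.12, 107.5 and 41.5 CPM, while Aqp8 stood at 375, 211 and 276 CPM and did not pass 2-fold (log2 ratios of -0.80 and -0.43, and -0.47 and -0.15 after the cell filter). Tmem37, a calcium channel subunit, stood at 87.2, 251 and 294 CPM. Slc12a2, the basolateral chloride importer of secreting crypt cells, stood at 13.97, 38.5 and 21.2 CPM.

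On the lower side was Car2, the cytosolic carbonic anhydrase that feeds ion exchange, at 1044 CPM on day 0, 339 on day 7 and 489 on day 42, with log2 ratios of -1.59 and -1.08. Slc26a2, a sulfate transporter, stood at 997, 382 and 592 CPM and was lower on day 7 alone. Fxyd4, a regulator of the sodium pump that responds to mineralocorticoids, stood at 510, 555 and 196 CPM and was lower on day 42 alone. The detoxification list had 27 measured genes on day 7, with Gstk1 higher and Aldh1a1, Cyp2s1 and Cyp2c55 lower, and a median of -0.28. That median turned with the processing, from -0.47 to 0.24 over the settings. On day 42 none of 27 passed 2-fold, and the median was -0.06 (-0.22 to 0.09).

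Clca4b lies on chromosome 3 at chr3:144910921-144932529 of GRCm38 (GENCODE M21), in a row of family members. Clca3b, at chr3:144822623-144849357, stood at 5.18 CPM on day 0, 134 on day 7 and 76.9 on day 42. Clca1, the goblet cell member at chr3:145003817-145032776, stood at 15.9, 2.94 and 51.6 CPM. It stood at 6721 CPM in the secretory cluster 15 on day 42, and the part of secretory cell RNA in its cluster 2 values was not tested. Within the family, Clca4b and Clca3b thus had the same order of days, whereas Clca4a and Clca1 were highest on day 42. The members are close copies of each other, so reads may have been split between them in counting, and the neighbours were chosen after their values had been seen.

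**Figure D3:**
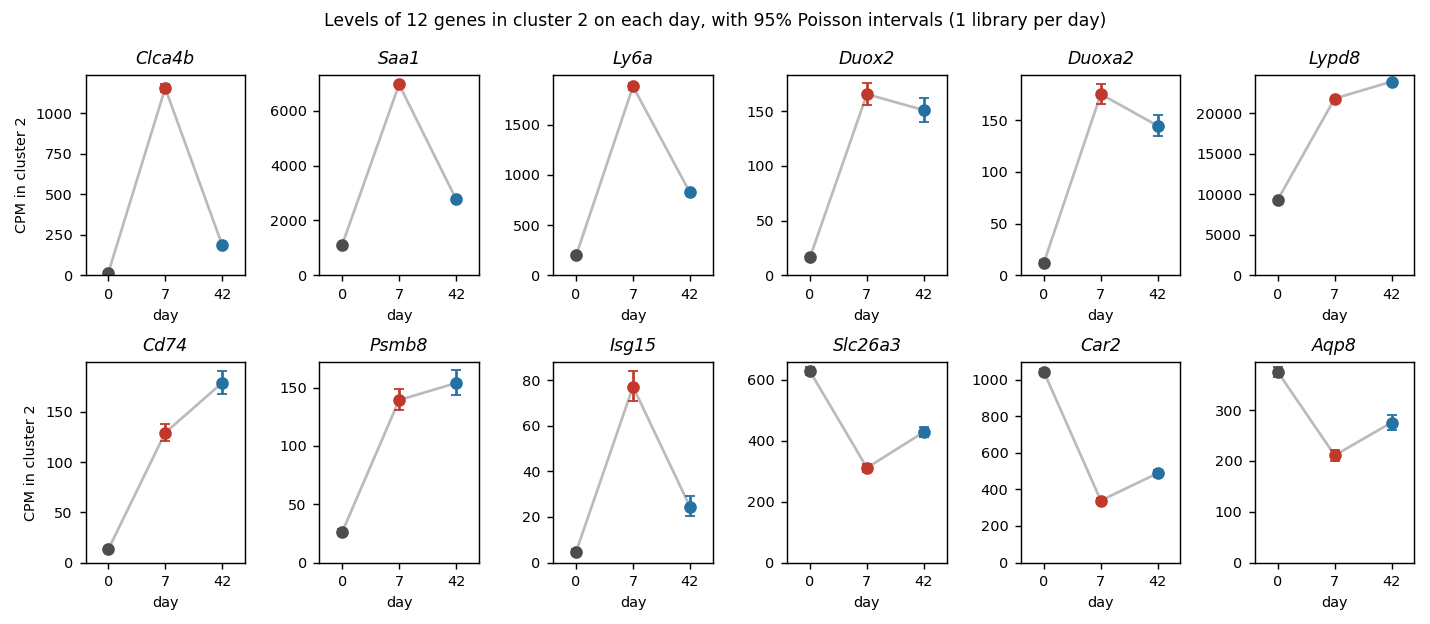
CPM in cluster 2 (y axis, from 0) of 12 genes (panels) on days 0, 7 and 42, with exact 95% Poisson intervals and 1 library per day. Clca4b, Saa1, Ly6a and Isg15 are highest on day 7, Duox2, Duoxa2 and Psmb8 are near one level on days 7 and 42, Cd74 is highest on day 42, and Slc26a3, Car2 and Aqp8 are highest on day 0.

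The antimicrobial and acute phase list had 16 measured genes on day 7, of which 9 were higher and 2 lower (median 1.22, 0.67 to 1.36 over the settings), and 13 on day 42, of which 5 were higher and none lower (median 0.48, 0.11 to 0.95). Duox2, the dual oxidase that makes hydrogen peroxide at the apical surface, stood at 16.4 CPM on day 0 (14.3 to 18.8), 166 on day 7 (156 to 176) and 151 on day 42 (141 to 162). Duoxa2, which Duox2 needs to mature, stood at 12.2 CPM (10.4 to 14.3), 175 (166 to 186) and 145 (134 to 155) on the same days. On both later days the pair was therefore far above day 0, with day 42 a little below day 7. Their genes stand head to head on chromosome 2, with Duox2 at chr2:122279247-122298449 on the minus strand, Duoxa2 at chr2:122298900-122302885 on the plus strand, and 451 bases between the annotated starts. Il18, an epithelial cytokine, stood at 158, 431 and 225 CPM, and was higher on day 7 alone. Tgm3, a transglutaminase, stood at 623, 244.5 and 399.5 CPM and was lower on day 7, as was Mptx1, a pentraxin of secretory cells, at 21.3, 1.17 and 44.8 CPM. In the secretory cluster 15, Mptx1 stood at 10706 CPM on day 0 and 23220 CPM on day 42, and that cluster held 35 cells on day 7. The part of secretory cell RNA in the Mptx1 values of cluster 2 was not tested.

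Several members of this list are also made by leukocytes. Slpi, a protease inhibitor, stood at 14.1, 175 and 11.1 CPM, the iron-binding Lcn2 at 5.73, 52.1 and 1.56 CPM, and Ltf at 3.06, 20.4 and 64.3 CPM. Nos2, which makes nitric oxide, stood at 0.549, 24.97 and 3.31 CPM. Of the chemokines and cytokines, 5 of 9 measured genes were higher on day 7 (median 1.44) and 1 of 5, Cxcl5, on day 42 (median 0.07). These medians ranged from 0.31 to 2.31 and from 0.0041 to 0.51 over the settings. Cxcl2, which attracts neutrophils, stood at 1.26, 80.0 and 6.62 CPM, and Il1b at 2.20, 73.1 and 9.93 CPM. Ccl20, which attracts lymphocytes and dendritic cells, stood at 1.41, 39.1 and 3.70 CPM. Of these, Slpi, Lcn2, Nos2, Cxcl2, Il1b and Ccl20 were at least 2-fold lower on day 42 than on day 7. For Il1b and Ccl20 the log2 ratios of -2.06 and -1.84 came up to -0.53 and -0.83 under some settings.

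Neutrophil RNA moved with these values. The 12 neutrophil markers summed to 260 CPM in cluster 2 on day 0, with Csf3r, Cxcr2, Mmp9, Mmp8, Hdc and Camp at 0, to 2964 on day 7 with none at 0, and to 829 on day 42 with Mmp8 at 0. Most of each sum was Ly6g, which is described with its neighbours below and was higher in cluster 2 than in neutrophils, and the 11 other markers summed to 7.22, 1379 and 166 CPM. S100a9, the neutrophil calprotectin subunit, had the highest log2 ratio of the named genes on day 7, 5.98, and S100a8 had the next, 5.69. In S100a9, 10 cells held 76.7% of the day 7 UMIs, and the level of 663 CPM was below the median of the other cell classes, 1449 CPM, and far below neutrophils, 127200 CPM. Without the 10% of cells on each day with the largest share of these 11 markers, the log2 ratios of S100a8 and S100a9 were 2.51 and 2.96. Both genes are among the 11 markers, so their fall was set by the choice of cells. Cxcl2, Il1b, Slpi and Lcn2 were highest in neutrophils or macrophages on days 7 and 42. Without the same cells the day 7 log2 ratio of Il1b went from 2.77 to 0.61, that of Lcn2 from 1.98 to 0.97 and that of Cxcl2 from 3.00 to 1.62, whereas Slpi went from 2.94 to 2.87 and Ccl20 from 2.10 to 2.17. The part of free leukocyte RNA in what remained was not tested. By contrast Clca4b, Saa1, Lypd8, Il18 and Aqp4 were higher in cluster 2 than in any of the 8 non-columnar classes on day 7, as was Ccl20, at 39.1 CPM against 13.4 in keratinocytes. Duox2 was so on days 7 and 42.

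The interferon response list had 7 of 17 measured genes higher on day 7 (median 0.83) and 5 of 14 on day 42 (median 0.38, 0.32 to 0.85 over the settings), and none lower. Gbp2, a guanylate-binding protein of cell-autonomous defence, stood at 13.1 CPM on day 0 (11.2 to 15.3), 156 on day 7 (147 to 165) and 59.6 on day 42 (53.1 to 66.6). Isg15, a ubiquitin-like modifier, stood at 4.71, 77.1 and 24.5 CPM, and Ifit1, which binds foreign RNA, at 1.33, 31.0 and 15.8 CPM. These genes were highest on day 7 and remained above day 0 on day 42. In Ifit1, however, 10 cells held 88.24%, 79.15% and 65.43% of the UMIs on days 0, 7 and 42. Zbp1, a nucleic acid sensor that can trigger necroptosis, stood at 9.03, 83.7 and 87.4 CPM, and so did not come down. Ifitm3 stood at 48.0, 131 and 114 CPM, and Irf7, the regulator of type I interferon genes, at 43.9, 91.6 and 100.5 CPM.

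To show the sequence beside these genes, the promoter windows in RefSeq (GRCm38.p6, 250 bases before to 50 after the start) were searched on both strands for GAAANNGAAA, the letters shared by interferon-stimulated response elements. It was found in 1079 of 27025 windows (3.99%), in 12 of 19 windows of the interferon list (63.2%), in 3 of 12 of the MHC class I list (25%) and in none of 5 of the MHC class II list. Of the interferon genes higher on day 7, 4 of 5 with a window held it. A match is a description of the letters and not a measured binding site. The stretches around the matches are shown for the 3 interferon genes above and for B2m, the MHC class I light chain, 5′ to 3′ on the gene's own strand, with matches in capitals (TTTCNNTTTC is the match on the opposite strand). Isg15 is from chr4:156200845-156200926 on the minus strand and holds 3 overlapping matches. Ifit1 is from chr19:34640755-34640843, Gbp2 from chr3:142620574-142620643 and B2m from chr2:122147518-122147587, all on the plus strand.
Isg15: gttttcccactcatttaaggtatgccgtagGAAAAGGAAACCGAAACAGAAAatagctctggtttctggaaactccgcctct
Ifit1: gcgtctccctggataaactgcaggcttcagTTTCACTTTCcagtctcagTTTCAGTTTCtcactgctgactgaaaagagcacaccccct
Gbp2: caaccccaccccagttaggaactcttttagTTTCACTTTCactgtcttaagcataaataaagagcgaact
B2m: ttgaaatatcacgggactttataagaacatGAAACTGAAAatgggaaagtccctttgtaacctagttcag

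Some antigen presentation genes were higher on the later days. Of the MHC class I list, 4 of 13 measured genes were higher on day 7 (median 0.47, 0.38 to 0.93 over the settings) and 2 of 13 on day 42 (median 0.61). Psmb8, a subunit of the immunoproteasome that cuts peptides for presentation, stood at 26.1 CPM on day 0 (23.3 to 29.0), 139 on day 7 (131 to 148) and 154 on day 42 (143 to 165). B2m stood at 144, 311 and 318 CPM, and the heavy chain H2-D1 at 456, 1030 and 860 CPM. Under some settings B2m on either day and H2-D1 on day 7 were short of 2-fold. H2-D1 shares much of its sequence with other class I genes, so its count is uncertain. MHC class II, which colonocytes can show to T cells in inflammation, had all 3 measured genes higher on day 7 (median 1.84, 0.72 to 3.02 over the settings) and all 4 on day 42 (median 2.34, 1.24 to 3.48). Cd74, the invariant chain, stood at 13.0 CPM on day 0 (11.1 to 15.2), 129 on day 7 (121 to 138) and 179 on day 42 (167 to 191). H2-Aa stood at 4.08, 40.2 and 75.7 CPM, and H2-Ab1 at 4.16, 27.6 and 49.3 CPM, each highest in the recovered mice.

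In Cd74, 10 cells held 65.7%, 42.7% and 28% of the UMIs in cluster 2 on days 0, 7 and 42. Cd74 is also abundant in macrophages, at 6429 CPM on day 7. In thinned cells Cd74 gave a UMI in 0.684%, 6.11% and 9.70% of cluster 2 against 2.05%, 4.63% and 3.33% of T cells, so that on day 7 the T cell share lay within the 95% interval of cluster 2 (4.44 to 8.16). Without thinning the shares were 2.89%, 16.5% and 17.8% against 3.65%, 7.63% and 4.13%, with cluster 2 the deeper. On day 42 its 179 CPM in cluster 2 exceeded the highest of the 6 other classes with at least 50 cells, endothelial cells at 85.9 CPM, and macrophages were too few to be compared. H2-Aa gave a UMI in 0.263% of cluster 2 cells on day 0, 3.20% on day 7 and 6.36% on day 42, against 0%, 0% and 1.11% of T cells, and without thinning in 1.60%, 10.2% and 12.5%. Among day 7 cells with a Cd74 UMI, 42 in number, 28.6% also had an H2-Aa UMI, against 1.55% of the rest. The macrophage markers summed to 5.65, 52.9 and 9.54 CPM in cluster 2, and the markers of B and plasma cells to 0.471, 0 and 117 CPM, of which Jchain made 113 on day 42. Their part in the class II values was not tested. In cluster 7 on day 42, none of 2 measured class II genes was higher (median 0.54), and in cluster 15 the 1 measured gene was (1.08). The difference between the clusters was not tested.

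The wound and regeneration list had 9 of 20 measured genes higher on day 7 (median 0.90) and 7 of 22 on day 42 (median 0.79). Ly6a, known as Sca-1 and a marker of regenerating colon epithelium, stood at 197 CPM on day 0 (189 to 205), 1879 on day 7 (1847 to 1912) and 824 on day 42 (799 to 849). Its day 7 level in cluster 2 was above that of fibroblasts, at 889 CPM. It is part of the Ly6 row on chromosome 15, at chr15:74994877-74998031 on the minus strand. Its neighbours Ly6c1 at 15.1, 353 and 56.5 CPM and Ly6g at 253, 1586 and 663 CPM had the same order of days, whereas 2010109I03Rik, at chr15:74876987-74897021, stood at 257, 1200 and 1197 CPM. Ly6g is a neutrophil surface antigen and made up most of the day 0 neutrophil marker sum, yet it was higher in cluster 2 than in neutrophils (578 CPM on day 7). The Ly6 genes resemble each other in sequence, so their separate counts are uncertain, and the neighbours outside the lists were in part chosen after their values had been seen.

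The unfolded protein response list, which covers folding and export in the endoplasmic reticulum, had 5 of 14 measured genes higher on day 7 (median 0.76) and none on day 42 (median 0.23). Hspa5, its main chaperone, stood at 233, 600 and 398 CPM, and Manf, Pdia6, Calr and Xbp1 were the others. The cell death list had Zbp1, Ripk3, Casp8 and Gsdmd higher and Gsdmc3 lower among 18 measured genes on day 7. Of the hypoxia list, Ddit4 alone of 20 was higher on day 7 and none on day 42. The stress list for tissue dissociation had 2 of 16 higher on each day, with medians of -0.06 and 0.13, so cluster 2 as a whole showed no broad shift on it (-0.25 to 0.17 and -0.05 to 0.28 over the settings). In clusters 7 and 15 the same list had medians of -0.52 and -0.53 on day 42 against day 0. Whether this came from the preparation of the libraries or from the state of the cells cannot be told apart.

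By the ranking rule, further genes stood out on day 7. Aldh1a3, which makes retinoic acid, stood at 9.18 CPM on day 0, 244.5 on day 7 and 43.6 on day 42. Tac1, the gene of the peptide substance P, stood at 8.48, 177 and 19.1 CPM, and on day 7 it was higher in cluster 2 than in any other class. The secreted whey acidic domain gene Wfdc18 stood at 7.14, 213 and 90.3 CPM. Retnlg, a neutrophil gene, had 3 UMIs in cluster 2 on day 0 and stood at 0.235, 124 and 2.14 CPM. The lowest ratio was that of Tppp3, a tubulin-binding protein, at 156, 10.3 and 151 CPM, a loss on day 7 with a return by day 42. Id3, a target of BMP signals, had the same course at 131, 27.2 and 115 CPM, as did Edn1, the endothelin gene, at 156, 40.7 and 134 CPM. The chloride channel gene Ano1 stood at 137, 43.8 and 141 CPM, and Mal, a membrane trafficking gene, at 107, 15.9 and 71.8 CPM. Slc37a2, a sugar phosphate transporter, stood at 105, 29.1 and 21.03 CPM and had not returned. Selenbp1, a selenium-binding protein of mature colonocytes, stood at 692, 228 and 506 CPM.

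Cst6, an epidermal protease inhibitor, stood at 507, 101 and 25.7 CPM, but 10 cells held 89.9% of its day 0 UMIs. Its day 7 log2 ratio of -2.22 ranged from -3.61 to -0.10 over the settings. The 15 keratinocyte markers summed to 1943, 3168 and 3774 CPM in cluster 2, with none at 0, against 23785 to 34023 CPM in keratinocytes. Among the genes highest on day 42, Ecm1 had a log2 ratio of 2.08, which was 0.82 without the 10% of cells with the most keratinocyte RNA, and Krt6a is itself a keratinocyte marker. The part of keratinocyte RNA in these values was not tested. The other day 42 leaders, apart from genes already described, included Bglap3 at 26.1, 266 and 173 CPM, which was also higher in cluster 2 than in other classes. In Bglap3, 10 cells held 49.9%, 37.1% and 40.7% of the UMIs on days 0, 7 and 42. The lowest ratios on day 42 against day 0, beside Cst6, Slc37a2, Fxyd4 and Car2, were those of Gm42418 (-1.26), Timp3 (-1.16), Lars2 (-1.12) and Apoe (-1.11), with Sipa1l3 and Utp14b short of 2-fold. Lars2, a mitochondrial tRNA ligase, had -0.97 and -1.06 in clusters 7 and 15. Between the treated days, Crip1, a LIM domain gene, was higher on day 42 (2818, 1338 and 4852 CPM on days 0, 7 and 42), and the largest losses were those of S100a8 and Retnlg, followed by S100a9, Slpi and Tac1.

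Single cells were compared after each had been thinned to 1000 UMIs, which left 1900, 688 and 959 cells of cluster 2. T cells (195, 108 and 90 thinned cells, median depth 2064, 2260 and 1393 UMIs) are given beside them as a type outside the epithelium. Clca4b gave a UMI in 1% of cluster 2 cells on day 0, 47.7% on day 7 and 12.3% on day 42, and in 0% of T cells each day. Without thinning the shares in cluster 2 were 3.93%, 70.7% and 22.5%. The gene was thus seen in a large part of the day 7 cells rather than a few. Duox2 gave one in 3.11%, 20.1% and 17.4%, and Duoxa2 in 2.05%, 19.6% and 15.02% (6.61%, 52.9% and 34.4%, and 4.91%, 46.5% and 29.8%, without thinning). Ly6a gave one in 15.4%, 62.7% and 48.6% of cells, against 9.74%, 20.4% and 17.8% of T cells, which express it themselves, and in 47.1%, 85.6% and 72.5% without thinning. Slc26a3 was seen in 42.8%, 23.98% and 30.03%, and in 68.7%, 52.6% and 52.1% without thinning. S100a8 gave a UMI in 10.9% of cluster 2 cells on day 7 and in 11.1% of T cells, and Krt14 in 30.2% against 44.4%. Without thinning these were 38.8% against 23.7% and 82.4% against 68.6%, at cluster 2 depths that were over those of T cells. How much of either gene's RNA came from outside the cells was not tested.

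**Figure D4:**
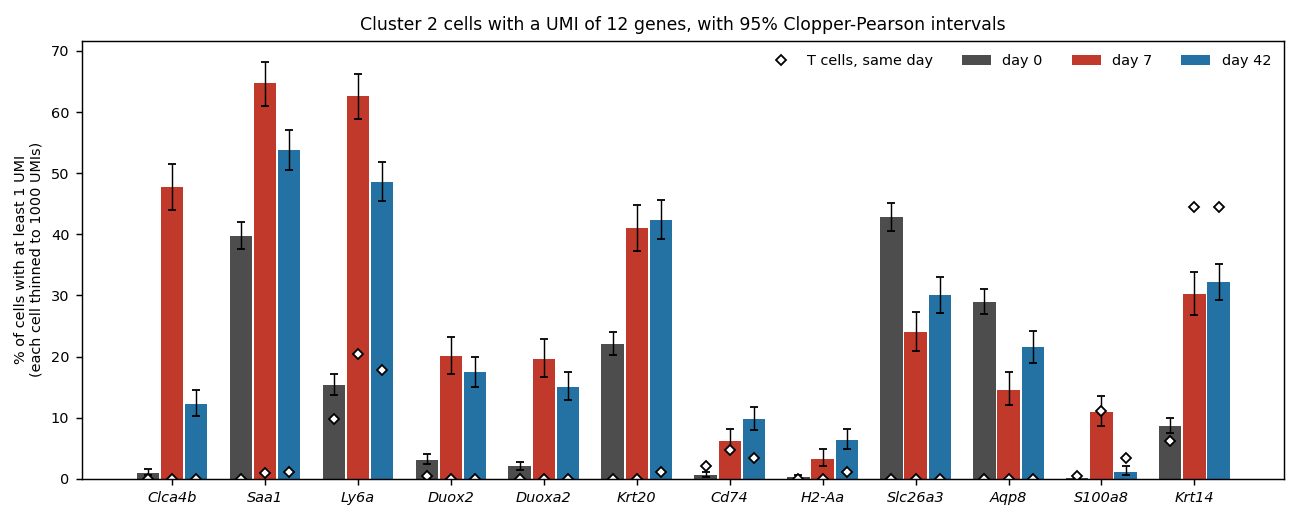
Percent of cluster 2 cells, each thinned to 1000 UMIs, with at least 1 UMI of 12 genes (x axis), by day, with exact 95% Clopper-Pearson intervals; diamonds show T cells of the same day. Clca4b reaches 47.7% on day 7 with T cells at 0%, whereas the day 7 bars of S100a8 and Krt14 are at or below the T cell value.

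Cells of cluster 2 were not alike. Saa1 had a variance over its mean of 7.79, 19.3 and 13.3 in thinned cells on days 0, 7 and 42, and Lypd8 of 6.92, 13.9 and 14.7, where the median gene, of lower level, had 1.10, 1.11 and 1.09. The nuclear RNA Malat1 (31.9, 61.8 and 32.4) and Gm42418 (24.6, 43.1 and 27.1) were above both, as were Cst6 on day 0 and S100a8 and S100a9 on day 7. Saa1 and Car4 were often seen in the same cells. On day 0, Car4 gave a UMI in 63.5% of cells with a Saa1 UMI and in 14.7% of those without, on day 7 in 58.0% against 4.94%, and on day 42 in 61.6% against 7.00%. Aqp8 gave one in 50.5% against 14.7%, 21.4% against 2.06%, and 33.3% against 7.68%. In each library Car4 and Aqp8 were thus seen more often in cells with Saa1 than in cells without. On day 7 the 445 cells with Saa1 had a median of 6887 UMIs and the 243 without had 12010, so the former were the shallower before thinning.

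On day 7 the 328 cells with a Clca4b UMI held on average 15.5 Saa1 UMIs per 1000 against 4.67 in the 360 without, 1.96 against 0.769 of Car4, and 2.02 against 1.02 of Ly6a, with median depths of 8258 and 5819 UMIs. Cells with Clca4b thus held more Saa1, Car4 and Ly6a than those without. Cells with Duox2 also held more Saa1, at 15.3 against 8.46 UMIs per 1000, more Car4, at 2.18 against 1.13, and more Ly6a, at 1.91 against 1.39, and Clca4b was seen in 68.1% of them against 42.6%. Car1 was seen less in cells with Duox2, and more in cells with Clca4b, at 2.19 against 1.31 UMIs per 1000, but on day 42 less in cells with Clca4b, at 1.18 against 1.68. Of the 138 day 7 cells with a Duox2 UMI, 41.3% also had Duoxa2 against 14.2% of 550 without, and 26.8% had Car1 against 45.3%. Their median depth was 3280 UMIs against 8995, and whether depth plays a part in this was not tested.

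The cells of each day were also sorted by their UMIs of the surface colonocyte list into 3 groups of about equal size, low, middle and high. This score gives a range and not separate cell types: within 1 UMI of the boundaries lay 154 and 146 of 1900 cells on day 0, 33 and 59 of 688 on day 7, and 74 and 83 of 959 on day 42. The median mitochondrial share was 58.4%, 27.5% and 18.6% in the low, middle and high groups on day 0, 44.4%, 12.9% and 10.7% on day 7, and 26.3%, 13.3% and 11.6% on day 42, so levels are given per 1000000 non-mitochondrial UMIs. Since a cell with many mitochondrial UMIs scores low by construction, the groups were also formed from the list's share of non-mitochondrial UMIs, where the median mitochondrial share still went from 46.6% to 21.5% between low and high on day 0 and from 31.2% to 11.7% on day 7. Lypd8 was higher from low to high on every day, at 7678, 13320 and 15580 on day 0 and 12270, 29520 and 33160 on day 7. Car1 did the same, at 574, 2088 and 3474 on day 7. Saa1 was highest in the middle group, at 2516, 3634 and 2061 on day 0, 9379, 16590 and 11040 on day 7, and 6549, 7058 and 4438 on day 42. Car4 had the same middle peak, at 1406, 2262 and 1414 on day 7. Slc26a3 ran the other way, at 1719, 1309 and 980 on day 0, and Duox2 was highest in the low group on day 7, at 648, 342 and 276. Clca4b stood at 766, 1777 and 1951 on day 7. With the other score Saa1 was again highest in the middle group, at 10220, 16130 and 11140 on day 7, as was Car4 on days 7 and 42, but on day 0 Car4 was highest in the low group, at 1529, 1364 and 982. Duox2 on day 7 was again highest in the low group, at 509, 412 and 291. Whether these orders follow maturity or the mitochondrial share cannot be told apart here.

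**Figure D5:**
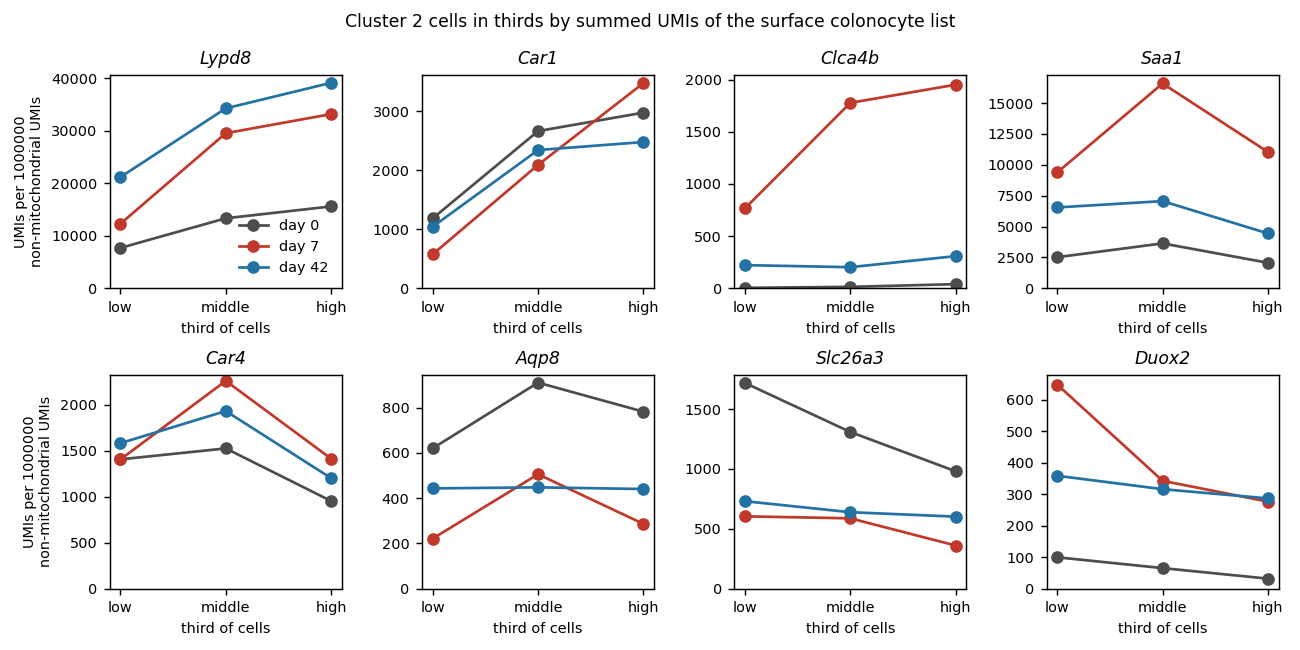
UMIs per 1000000 non-mitochondrial UMIs (y axis, from 0) of 8 genes in cluster 2 cells in 3 groups of about equal size by summed surface colonocyte UMIs (x axis, low to high), by day, with no error bars since cells of 1 library are not replicates. Lypd8 is highest in the high group on every day, Saa1 and Car4 in the middle group and Duox2 in the low group on day 7.

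Set beside the other columnar clusters on day 42 against day 0, cluster 2 had 110 genes higher and 20 lower of 7099 measured. Cluster 7 had 40 higher and 38 lower of 8121, and cluster 15 had 124 higher and 42 lower of 7952. Duox2 went from 16.4 to 151 CPM in cluster 2 and from 18.2 to 20.96 CPM in cluster 7, and in cluster 15 it was at least 2-fold higher too, at 19.3 and 51.2 CPM. Ly6a had log2 ratios of 2.01, 1.58 and 1.83 in clusters 2, 7 and 15, and Krt6a of 2.21, 2.35 and 3.65. Aqp4 had 2.09 in cluster 2 and 2.56 in cluster 7. Saa1 went from 12.4 to 15.1 CPM in cluster 7 and from 298 to 502 CPM in cluster 15. 2010109I03Rik stood at 2.11 and 8.38 CPM in cluster 7 against 257 and 1197 CPM in cluster 2. The interferon list had medians of 0.38, 0.11 and -0.17 in clusters 2, 7 and 15, and the antimicrobial list of 0.48, -0.08 and 0.86. In the antimicrobial list 5 of 13, 1 of 13 and 7 of 17 measured genes were higher, and 0, 1 and 0 lower. The wound list had 7 of 22, 3 of 21 and 8 of 22 higher, and 0, 1 and 1 lower. Over all measured genes, 110 of 7099, 40 of 8121 and 124 of 7952 were higher. With 1 library per day, none of these differences between clusters was tested.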

How the data were processed

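The authors deposited whole-number UMI counts per gene and cell for 3 libraries, with no normalization, and a cell table (other values: day, cluster number and cell type name). Its size factor column is a ratio of each cell's total to a common total, per the values the authors deposited. It was used only to check the order of cells. Cell Ranger 3.0.2 and mm10 are named in the submitters' processing notes. The annotation used for counting, the cell filter and the treatment of doublets are not given in the sources used here. Of 31053 gene IDs, 30934 (99.6%) were found in GENCODE M21 and 30468 had the same symbol there.

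Counts were summed over cluster 2 per day and expressed as CPM (pandas 2.3.3, with scipy 1.17.1 for intervals). Genes with a mean of at least 10 CPM were compared as log2 ratios with 10 CPM added. Named genes were the 10 highest and 10 lowest ratios (5 and 5 for day 42 against day 7 and between clusters) among genes that reached 100 CPM on 1 of the days compared. Genes of mitochondria, ribosomal proteins, haemoglobins and antibodies, Xist and genes on Y were not ranked. Added to these were the 6 markers and up to 6 members per list with at least 100 CPM. Other list members, including those under that level, are named as description. Scrublet (scanpy 1.11.5) was run per library, and no cell was removed for the reported values. Ccn1 and Ccn2 were read as Cyr61 and Ctgf, and Prac1 was not matched. Members and gene lists were chosen with earlier results of these data known. Alternatives covered cell filters, doublet scores, scaling, thinning, pseudocount and the filter on low values. The settings without shared barcodes, without the cells with most neutrophil (with and without Ly6g) or keratinocyte RNA, with the other score for groups of cells, and with the cell filter and size factors together were chosen after seeing the data.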

Additional observations from a re-analysis of the deposited data

How the results depend on the processing

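Of 182 ratios past 2-fold among the named genes, 181 kept their direction under the 14 alternative settings and 117 stayed past 2-fold in all of them. Under at least 1 setting the 2-fold line against day 0 was missed at day 7 by B2m, Casp8, Crip1, Cst6, Cyp2c55, Ddit4, Gm42418, Gsdmd, Gstk1, H2-D1, Ifitm3, Il1b, Krt20, Krt6a, Lars2, Lcn2, Ltf, Pdia6, Slc12a2, Timp3 and Xbp1, and at day 42 by Apoe, B2m, Car2, Cst6, Cxcl5, Ecm1, Gm42418, Ifitm3, Irf7, Krt20, Lars2, S100a8, S100a9 and Timp3 and, for day 42 against day 7, by Aqp4, Ccl20, Cst6, Ecm1, Gbp2, Il1b, Isg15, Ltf, Ly6a, Ripk3, Selenbp1 and Wfdc18, among the genes described. The one change of sign was Tm4sf1 at day 42 against day 0, 1.43 on the log2 scale and -0.0137 without the 10% of cells with the most keratinocyte RNA. The cell filter moved 279 gene values past their counting error and 22 list medians by 0.1 or more, and gave 37 lower genes at day 42, 14 lower list members at day 7 and 4 at day 42, and shares of 7.47%, 4.05% and 7.28% of all cells and 22.5%, 59.6% and 56.6% of columnar cells at days 0, 7 and 42. Leaving out the 5% of cells with the highest doublet score gave 13 lower genes at day 42. Totals without mitochondrial and ribosomal protein genes gave 165 lower genes at day 7 and 44 at day 42, and 14 lower list members at day 7. The mean of CPM per cell gave 11 lower list members at day 42 against day 7. Thinning gave 110 lower genes at day 7, and 167 higher genes and 1 lower list member at day 42. Adding 1 CPM in place of 10 gave 327 higher and 159 lower genes and 13 lower list members at day 7, 42 lower genes and 4 lower list members at day 42, and 111 higher and 131 lower genes and 11 higher list members at day 42 against day 7. A mean of at least 50 CPM, which leaves fewer genes, gave 121 higher and 38 lower genes and 34 higher list members at day 7, 57 and 8 genes and 18 higher list members at day 42, and 32 and 39 genes and 2 higher and 8 lower list members at day 42 against day 7. Other causes were not tested. Totals without mitochondrial and ribosomal protein genes moved the median of all genes to -0.10 in both comparisons with day 0. No paired analysis was possible because each day is 1 library. Leaving out a replicate was likewise not possible. Depth limits genes near 10 CPM.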
